A study of Rattus norvegicus with 2 samples.

Results

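The genes described here encode the proteasome of rat vascular smooth muscle cells: its core, its regulatory particle, the activators that cap it, and the proteins that assemble or inhibit it. They were found by name, as probe sets annotated to a single rat gene whose symbol begins with Psma, Psmb, Psmc, Psmd, Psme, Psmf or Psmg and a digit, and each gene was represented by its brightest probe set. This gave 43 genes of 10411 named on the array. Of these, 41 encode proteasome proteins and were placed in 8 classes by their known role. The other two, Psmc3ip and Psme3ip1, are named after a proteasome protein they bind and entered no class.

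The RNA came from A7r5, an embryonic rat vascular smooth muscle line. One group had been infected for 72 hours with an adenovirus carrying human GLUT1, the glucose transporter of the SLC2A1 gene, and the other with the empty adenovirus, both at a multiplicity of infection of 10 (100 particles per cell for each unit) and both in medium with 5.5 mM glucose. Both groups had therefore been exposed to virus, no group without virus was compared, and the host cells kept their own rat GLUT1 gene. RNA of 3 days was pooled within each group, and each pool gave 1 array, so the comparison has no replicates and no test. All values below describe these 2 pools.

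The proteasome is the barrel-shaped protease that degrades proteins tagged with ubiquitin. Its core stacks outer rings of alpha subunits, which gate the entrance, on inner rings of beta subunits, some of which carry the active sites. A regulatory particle, made of a base with ATPases that unfold the substrate and a lid that removes the ubiquitin chain, docks on the core. Interferon signalling exchanges the active beta subunits for the immunoproteasome subunits, which alter the peptides offered on MHC class I molecules. Smooth muscle cells, like most cells, make the standard form at all times, and in many cells its genes are transcribed in concert.

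Both arrays had a median intensity of 508 over 15923 probe sets, with quartiles of 175 and 1507.5, because the deposited values had already been brought to nearly one distribution. Genes with a mean log2 intensity over both arrays at or above the overall probe set median, which is an intensity of 507, are called measured, and 6114 genes were. The label of the cells was checked against smooth muscle markers, of which 9 of 11 were measured, among them Acta2 and Tagln. Of all 10411 genes named on the array 6114 were measured. Myh11, at 227 in the empty virus pool and 228 in the GLUT1 virus pool, and Lmod1, at 204 and 243, were not. Of the endothelial markers on the array 1 of 5 was measured, of the leukocyte markers 2 of 9, of the skeletal muscle markers 2 of 8 and of the epithelial and adipocyte markers 1 of 6. Of the measured markers of other cell types, Krt8 was read at 6193 and 6500, Myh1 at 4585 and 3662 and Acta1 at 2339 and 2240. C1qb, at 1352 and 1014, Cd14, at 1235 and 1398, and Esam, at 584 and 479, were dimmer. The measured markers were therefore not those of smooth muscle alone. The rat Slc2a1 probe set was not used to check the labels, since the virus carried the human cDNA.

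The proteasome genes were read almost alike in both pools. Of the 41 genes 40 were measured, and Psmb8 was below the brightness filter. The log2 ratio of GLUT1 virus over empty virus lay between -0.22 for Psma3 and 0.14 for Psmc3, with a median of 0.022 and an SD of 0.066 over the 40 measured genes. Over all measured genes the median was 0.0064 and the SD 0.14. No measured proteasome gene differed by 2-fold in either direction, where 0.0164% of all measured genes were 2-fold higher and 0% were 2-fold lower. None of these 40 genes found by name differed by a log2 ratio of 0.25 either. That size was passed upwards by 4.27% of all measured genes and downwards by 3.22%. Adrm1, a subunit outside the name pattern that is described below with the partners, did pass it, at 0.32.

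A fixed size treats dim and bright genes alike, although dim probe sets scatter more. The ratio was therefore also set against the local spread, the scaled median absolute deviation among the measured probe sets nearest in brightness, which holds array noise and real differences together. None of the 40 genes reached 2 local spreads, which 3.03% of all measured genes reached upwards and 2.55% downwards. The farthest were Psma3 and Psmc3, both at 1.61 local spreads, in opposite directions. Within 1 local spread of the local median lay 35 of 40, or 87.5%, where 68.6% of all measured genes did. Within 0.1 of a log2 ratio of 0 lay 36 of 40, or 90%, where the share over all measured genes was 58.5%. Proteasome genes were read by brighter probe sets than most, with a median intensity of 4585 in the empty virus pool against 1604 over all measured genes. The share within 0.1 takes no account of brightness, whereas the local spread is taken from probe sets of like brightness. Why the ratios lay close together was not tested.

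A ratio above 0 was found in 28 of the 40 genes, or 70.0%, and 52.2% of all measured genes had one. The same number, 28, lay above the local median, that of the probe sets nearest in brightness, where again 52.2% of all measured genes did. The genes share 2 pools of RNA and 2 arrays, so they are not independent observations.

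**Figure D1:**
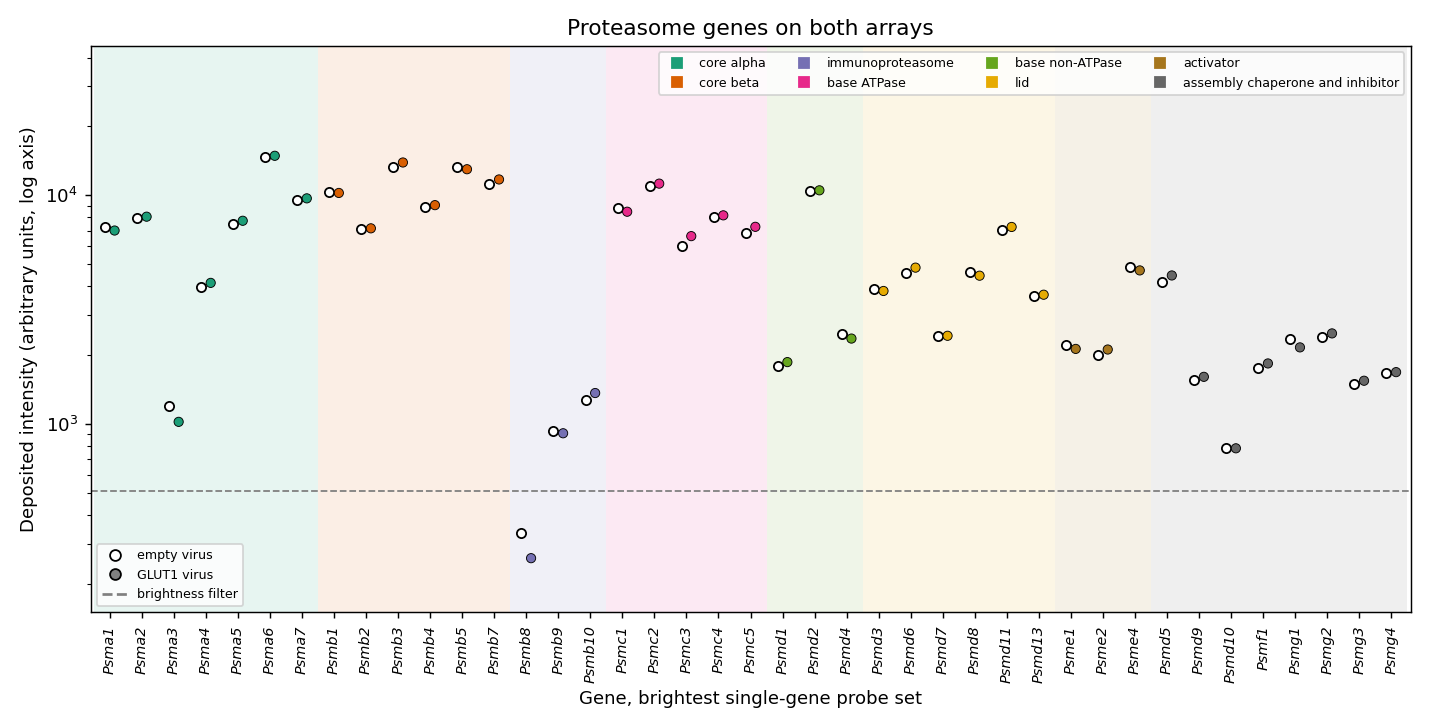
Deposited intensity of the brightest single-gene probe set of each of the 41 proteasome genes on a log axis, grouped by class, with open circles for the empty virus pool and filled circles for the GLUT1 virus pool (1 array each, no error bars). The circles of a gene sit close together, and Psmb8, at 334 and 259, is the only gene under the dashed brightness filter of 507.

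Intensities of different genes cannot be ranked as amounts of RNA, since probe sets differ in how well they bind, so they are given to show how far above background each reading was. The alpha ring was represented by Psma1 to Psma7. Psma6 was read at 14765 in the empty virus pool and 14887 in the GLUT1 virus pool (log2 ratio 0.013), and Psma7 at 9570 and 9699 (log2 ratio 0.021). Psma4, at 3967 and 4141, had the highest ratio of the ring at 0.063, and Psma5, at 7474 and 7739, followed at 0.052. These genes and Psma2, at 7936 and 8064, were higher in the GLUT1 virus pool by no more than the 1.04-fold of Psma4. Psma1, at 7249 and 7015, had a log2 ratio of -0.046.

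Psma3 stood lowest of all measured proteasome genes. Its single-gene probe set gave 1193 and 1022 (log2 ratio -0.22) and 0.857 times the empty virus reading. A brighter probe set lists Psma3 together with Psma3l and was left out by the rule, and it gave 14938 and 14143 (log2 ratio -0.078). The current rat gene table gives Psma3l as a synonym of Psma3. With both symbols taken as one gene, an alternative chosen after seeing the data, Psma3 is read by the brighter probe set and its ratio is -0.078. Both readings were lower in the GLUT1 virus pool, by different amounts. The alpha ring as a whole had a median log2 ratio of 0.021 over 7 genes, with 5 above and 2 below 0, while its mean was -0.013.

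The beta ring was represented by 6 of its 7 standard genes, since Psmb6 had no single-gene probe set. Psmb5 encodes the subunit with chymotrypsin-like activity, which cuts after hydrophobic residues, and was read at 13318 and 13004 (log2 ratio -0.033). Psmb7, the subunit with trypsin-like activity, was read at 11258 and 11731 (log2 ratio 0.061). Psmb5 and Psmb7 thus lay on opposite sides of 0, both by less than 1 local spread. Psmb6, also an active subunit, was read only by a probe set shared with Psmb6l1 (log2 ratio 0.16, 1.77 local spreads). Of the structural beta subunits, Psmb3 was read at 13331 and 13917 (log2 ratio 0.063), and Psmb4 at 8895 and 9058 (log2 ratio 0.028). Psmb2, at 7101 and 7172, had 0.016 and Psmb1, at 10359 and 10241, had -0.015. The beta genes had the narrowest spread of the classes with at least 6 measured genes, an SD of 0.039 around a median of 0.022.

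The immunoproteasome genes gave dim readings, 1 below and 2 above the brightness filter. Psmb8, which replaces Psmb5, was read at 334 and 259 (log2 ratio -0.37). This was the ratio farthest from 0 among the 41 genes, but at this brightness the local spread was 0.29, and Psmb8 lay 1.26 spreads below the local median. Psmb9, which replaces Psmb6, was read at 933 and 911 (log2 ratio -0.033). Psmb10, which replaces Psmb7, was read at 1268 and 1366 (log2 ratio 0.11), or 0.745 local spreads. The genes of the immunoproteasome therefore pointed in different directions, none past the 1.26 local spreads of Psmb8. Whether Psmb8 was detected at all cannot be read from these files, because no detection call was used here.

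Psmb8 and Psmb9 lie side by side with Tap1 and Tap2, the peptide transporter genes of antigen presentation, on rat chromosome 20. In RefSeq (GRCr8) the promoter windows of Tap1 and Psmb9, each from 250 bases before to 50 after the start, lie on opposite strands and overlap by 44 bases. Tap1 was read at 688 and 929 (log2 ratio 0.43, 2.81 local spreads), while Psmb9 was at -0.033. A second Tap1 probe set, below the brightness filter, gave 212 and 134, lower in the GLUT1 virus pool. A second gene of the interferon response, Irf1, whose product is known to activate immunoproteasome promoters, was read at 587 and 873 (log2 ratio 0.57, 3.47 local spreads). Psmb8 and Psmb9 lay below 0, and Psmb10 lay above 0 with a smaller ratio than Tap1 or Irf1. The difference between the genes could not be tested with 1 array per group.

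Promoter stretches of these interferon-responsive genes and of a pair of core genes are shown to give the sequence context of the genes read above. All were taken from RefSeq (GRCr8), upstream of the start site, 5′ to 3′ on the gene's strand, and capitals mark a match to a motif on either strand. Psmb10 holds 2 matches to the core of the interferon-stimulated response element, searched as GAAA, any 2 bases and GAAA, and Psme2 holds 1. For Psmb8 a CCAAT box is marked and for Psmb9 a GC box, GGGCGG. Psmb5 and Psma3 hold TGACNNNGC, the core of the antioxidant response element through which NRF1 and NRF2 act on proteasome genes. Psme2 and Psma3 are cut to 30 bases because their matches lie inside the annotated gene.
Psmb8 (chr20:4657063-4657142, minus strand): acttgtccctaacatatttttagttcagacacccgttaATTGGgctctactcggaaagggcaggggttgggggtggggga
Psmb9 (chr20:4668832-4668911, plus strand): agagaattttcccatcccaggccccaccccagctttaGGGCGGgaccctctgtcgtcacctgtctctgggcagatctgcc
Psmb10 (chr19:50743293-50743372, minus strand): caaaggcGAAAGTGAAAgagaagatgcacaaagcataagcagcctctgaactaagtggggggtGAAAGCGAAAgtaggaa
Psme2 (chr15:33052785-33052814, minus strand): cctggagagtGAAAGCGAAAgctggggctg
Psmb5 (chr15:32047396-32047475, minus strand): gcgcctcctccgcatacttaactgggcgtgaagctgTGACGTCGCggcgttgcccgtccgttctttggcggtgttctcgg
Psma3 (chr6:95219719-95219748, plus strand): ggaagcgttctgtggcctGCCGGGTCAgca

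RefSeq gave a promoter window for 39 of the 41 genes, and the 250 bases before each start were searched on both strands. A GC box, GGGCGG, was present in 27 of 39, or 69.2%, against 38.9% of the windows of protein-coding genes and 30.5% of all 33469 windows. The ETS core CCGGAAG was present in 9, or 23.1%, against 9.01% of protein-coding windows and 7.27% of all windows. CCAAT was present in 19, or 48.7%, against 35.0% and 34.0%. TGACNNNGC was present in 6, or 15.4%, against 10.5% of protein-coding windows and 10.1% of all windows. The interferon-stimulated response element core was present in 5, or 12.8%, against 3.27% of protein-coding windows and 3.41% of all windows. The 5 genes were Psma4, Psmb3, Psmb10, Psmd7 and Psme2. In these windows 2 pairs of matches to different motifs overlapped.

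A match is a run of letters and does not show that a factor binds. The 5 genes with the interferon-stimulated response element core had log2 ratios from 0.0038 to 0.11, with a median of 0.063, and the 33 other measured genes with a window had a median of 0.017 over a range from -0.22 to 0.14. The 6 genes with TGACNNNGC had a median of -0.0087, and the 32 without it 0.024. The ranges overlapped for both motifs. For the GC box the medians were 0.017 in 27 measured genes with it and 0.028 in 11 without it.

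**Figure D2:**
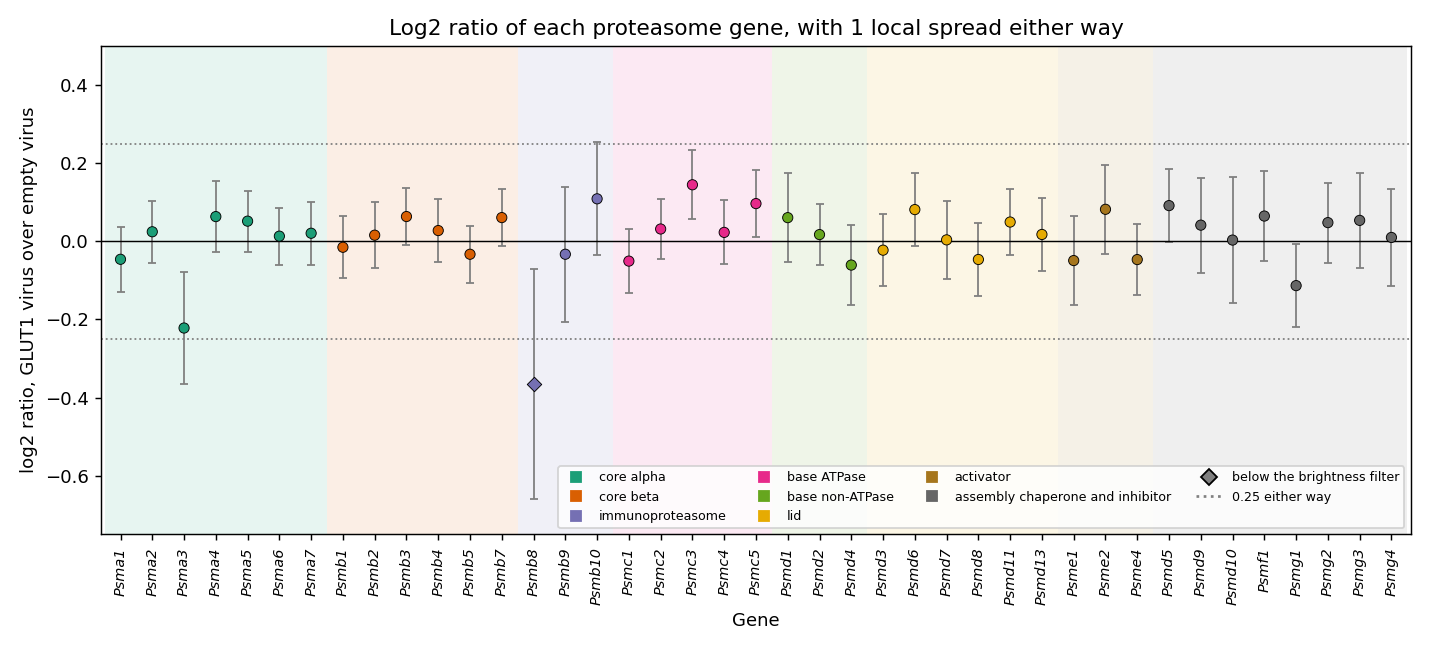
Log2 ratio of GLUT1 virus over empty virus for each of the 41 proteasome genes, grouped by class, with bars of 1 local spread either way (array scatter at that brightness, not a replicate error). Most bars cross 0, no circle passes the dotted lines at 0.25 either way, and Psmb8, the diamond below the brightness filter, sits at -0.37 with the widest bar.

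The base of the regulatory particle holds a ring of ATPases that unfold the substrate and thread it into the core. The ring was represented by 5 of its 6 genes. Psmc3 had the highest ratio of the 40 measured genes found by name, at 6003 and 6630 (log2 ratio 0.14, 1.11-fold). Psmc5 was next, at 6817 and 7282 (log2 ratio 0.097, 1.12 local spreads). Psmc2, at 11016 and 11249, had 0.032, and Psmc4, at 8053 and 8174, had 0.023. Psmc1, at 8789 and 8478, was the only one below 0, at -0.051. The ATPase class had a median of 0.032 over its 5 measured genes, with 4 above and 1 below 0.

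The other base subunits are scaffolds and ubiquitin receptors. Psmd2, a docking scaffold for ubiquitin shuttle proteins, was read at 10402 and 10517 (log2 ratio 0.017). Psmd1, the other scaffold, was read at 1790 and 1865 (log2 ratio 0.061). Psmd4, a receptor for ubiquitin chains, was read at 2468 and 2364 (log2 ratio -0.061). The class had a median of 0.017 over 3 genes, and each lay within 1 local spread. Adrm1, also a ubiquitin receptor of the base, falls outside the name pattern and is described below with the partners.

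The lid holds the deubiquitinase and its scaffold. Of the 8 lid genes whose symbols match the name pattern, 6 had a single-gene probe set. Psmd12 and Psmd14, the deubiquitinase gene itself, had none. Sem1, a small lid subunit outside the pattern, is not counted here and is given below with the partners. Psmd6 had the highest ratio, at 4568 and 4828 (log2 ratio 0.081), and Psmd8 the lowest, at 4602 and 4452 (log2 ratio -0.046). Psmd11, a scaffold subunit, was read at 7034 and 7272 (log2 ratio 0.049). Its second measured probe set gave 2887 and 2904 (log2 ratio 0.0098) in the same direction. Psmd13, at 3635 and 3676, had 0.018, Psmd7, at 2427 and 2431, had 0.0038, and Psmd3, at 3881 and 3817, had -0.023. The 6 lid genes had a median of 0.011, with 4 above and 2 below 0, and all lay within 1 local spread. The base and lid genes found by name together spanned 0.21 log2 units from the lowest to the highest gene. The standard core spanned 0.29, with its lower end set by the single-gene probe set of Psma3. The brighter probe set that lists Psma3 with Psma3l gave -0.078, so which span is wider depends on that choice.

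Activators open the gate of the core without the need for ubiquitin. Psme1 and Psme2 encode the interferon-inducible PA28 ring and were read at 2206 and 2130, and at 2002 and 2117. Their log2 ratios were -0.049 and 0.082, so the partner chains of one ring lay on opposite sides of 0, each by less than 1 local spread. Psme4, the large PA200 activator, was read at 4854 and 4695 by its brightest probe set (log2 ratio -0.047). Its second probe set gave 3571 and 3802 (log2 ratio 0.092), and the dimmest, below the brightness filter, gave 284 and 458 (log2 ratio 0.69). The 3 probe sets of Psme4 therefore did not share a direction. Averaging the measured ones turned the median of the activator class from -0.047 to 0.023. Psme3 was named only together with other genes and is not reported.

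Assembly factors and an inhibitor made up the last class. Psmg1 to Psmg4 encode the chaperones that build the alpha ring. Psmg1 was read at 2342 and 2163 (log2 ratio -0.11, 1.08 local spreads below the local median), and its dimer partner Psmg2 at 2411 and 2490 (log2 ratio 0.048). Psmg3 was read at 1491 and 1546 (log2 ratio 0.054), and its partner Psmg4 at 1676 and 1686 (log2 ratio 0.0100). The chaperones of the base were Psmd5, at 4192 and 4462 with a log2 ratio of 0.091, Psmd9, at 1564 and 1608 with 0.041, and Psmd10, which encodes gankyrin, at 782 and 783 with 0.0032. Psmf1, the inhibitor PI31, was read at 1761 and 1840 (log2 ratio 0.065). In this class 7 of 8 genes lay above 0, with a median of 0.045, where 52.2% of all measured genes lay above 0. Within 1 local spread lay 6 of 8, where 68.6% of all measured genes did.

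The class medians ran from -0.047 for the activators to 0.045 for the assembly factors and inhibitor. With 2 to 8 measured genes per class and single readings of each gene, no order among the classes can be read from these medians. The same holds for the class counts above 0, beside 52.2% of all measured genes, and within 1 local spread, beside 68.6%. The scatter of a single ratio between probe sets was estimated from genes with at least 2 measured probe sets, whose 2 brightest were compared. This gave an SD of 0.13 over 702 genes of the whole array. Of these, 357, or 50.9%, had both probe sets on the same side of 0. Both probe sets of a gene were read on the same 2 arrays, so this SD holds no variation between arrays or pools. Among proteasome genes such a comparison was possible for Psmd11 and Psme4 alone, and 1 of these 2 pairs had the same sign.

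Annotated gene copies limit how far a reading belongs to one gene. Of the 41 genes, 14 have in the current rat gene table at least 1 annotated pseudogene copy, 38 copies in all, with 8 for Psmb3 and 5 for Psma6. The files do not show which copies a probe set can bind, so these readings are uncertain in that respect. None of Psmb8, Psmb9, Psmb10, Psmc3 and Psmc5 has such a copy in the table.

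**Figure D3:**
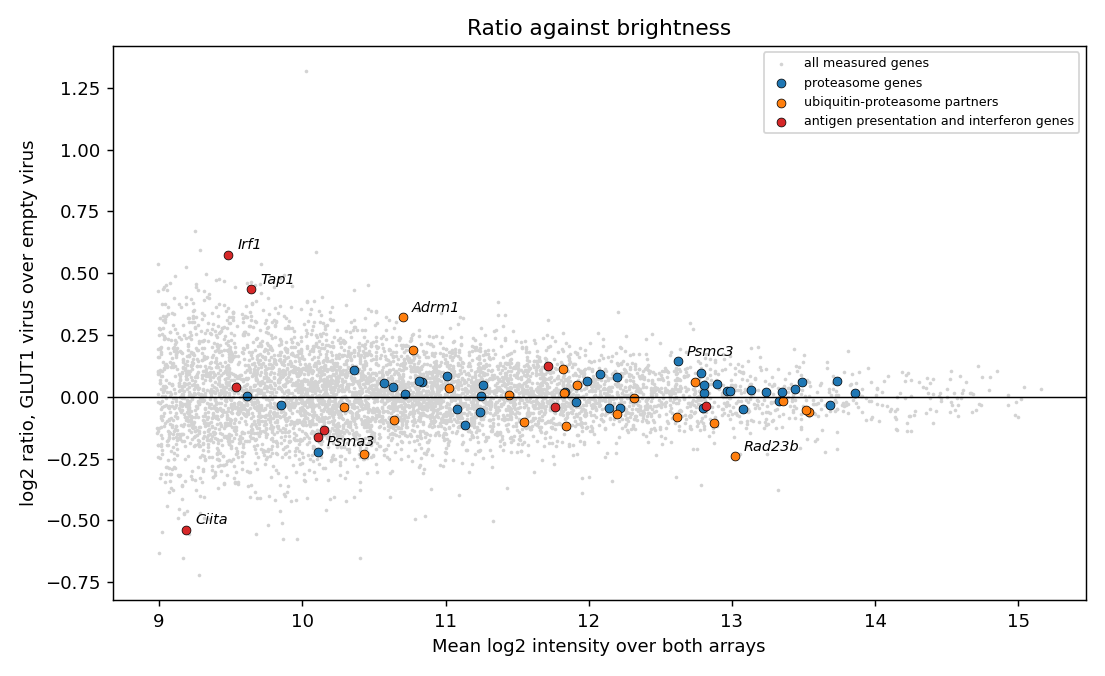
Log2 ratio of GLUT1 virus over empty virus against mean log2 intensity over both arrays for all 6114 measured genes (grey), the 40 measured proteasome genes (blue), 21 ubiquitin-proteasome partners (orange) and 9 antigen presentation and interferon genes (red). The grey cloud narrows with brightness, the blue points lie near 0 within it, and Irf1, Tap1, Ciita, Adrm1 and Rad23b sit farther from 0.

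Genes that work with the proteasome but fall outside the name pattern had a wider range. A list of 32 genes for ubiquitin receptors, shuttle factors, proteasome-bound deubiquitinases, the transcription factors NRF1 and NRF2 and related proteins held 23 genes named on the array, of which 21 were measured. Their median log2 ratio was -0.042, with 8 above and 13 below 0, where 52.2% of all measured genes lay above 0. Adrm1, the ubiquitin receptor of the base that recruits the deubiquitinase Uchl5, was read at 1488 and 1858 (log2 ratio 0.32). This was 2.72 local spreads above the local median and the only gene of the list past 0.25. Of all measured genes 4.27% passed 0.25 upwards and 3.22% downwards. Adrm1 is a proteasome subunit by function, and its ratio exceeded that of each of the 40 measured genes found by name.

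The lowest of the partners was Rad23b, a shuttle that carries ubiquitylated proteins to the proteasome, read at 9028 and 7636 (log2 ratio -0.24, 2.96 local spreads below the local median). Faf1, at 1493 and 1270, had -0.23, and Nploc4, a cofactor of the segregase VCP, had -0.12 at 3823 and 3522. Bag6, at 1639 and 1867, had 0.19, and Ube3c, a ubiquitin ligase that acts on the proteasome, had 0.11 at 3480 and 3762. The transcription factor genes Nfe2l1 and Nfe2l2, which encode NRF1 and NRF2, had log2 ratios of -0.042 and 0.015 by their brightest probe sets. The other measured probe sets of Nfe2l1 gave 0.12 and 0.064. Pomp, the chaperone of beta ring assembly, was read at 12177 and 11662 (log2 ratio -0.061), and Sem1, a small lid subunit, at 11919 and 11481 (log2 ratio -0.053). Nfe2l1, Nfe2l2, Pomp and Sem1 were picked with their values known.

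Of 24 antigen presentation and interferon genes, 16 were named on the array and 9 were measured. They ranged more widely, from -0.54 for Ciita, the master regulator of MHC class II, at 703 and 484, to 0.57 for Irf1, with a median of -0.037. Besides Irf1 and Tap1, Stat2 was higher in the GLUT1 virus pool, at 3216 and 3507 (log2 ratio 0.13). A second measured probe set of Stat2 gave 971 and 992 (log2 ratio 0.032). Gbp2, an interferon-induced GTPase, was lower at 1171 and 1046 (log2 ratio -0.16), and Tapbp, which encodes tapasin, was lower at 1193 and 1085 (log2 ratio -0.14). B2m, the light chain of MHC class I, was picked with its value known and was read at 7313 and 7120 (log2 ratio -0.037), and its second probe set, below the brightness filter, gave 0.19. The SD over the 9 genes was 0.33, and 2 of them passed 0.25 upwards and 1 downwards. Of all measured genes 4.27% passed it upwards and 3.22% downwards. Past 2 local spreads there were likewise 2 of the 9 upwards and 1 downwards, where 3.03% and 2.55% of all measured genes were. Irf1, Tap1 and Ciita were among the dimmer measured genes, where the grey cloud of all genes was widest.

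The genes that match the name pattern without being proteasome parts were both lower. Psmc3ip, which encodes a meiotic recombination factor, was read at 1753 and 1623 (log2 ratio -0.11). Psme3ip1, whose product binds PA28 gamma, was read at 2144 and 2045 (log2 ratio -0.067). Each lay within 1 local spread.

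**Figure D4:**
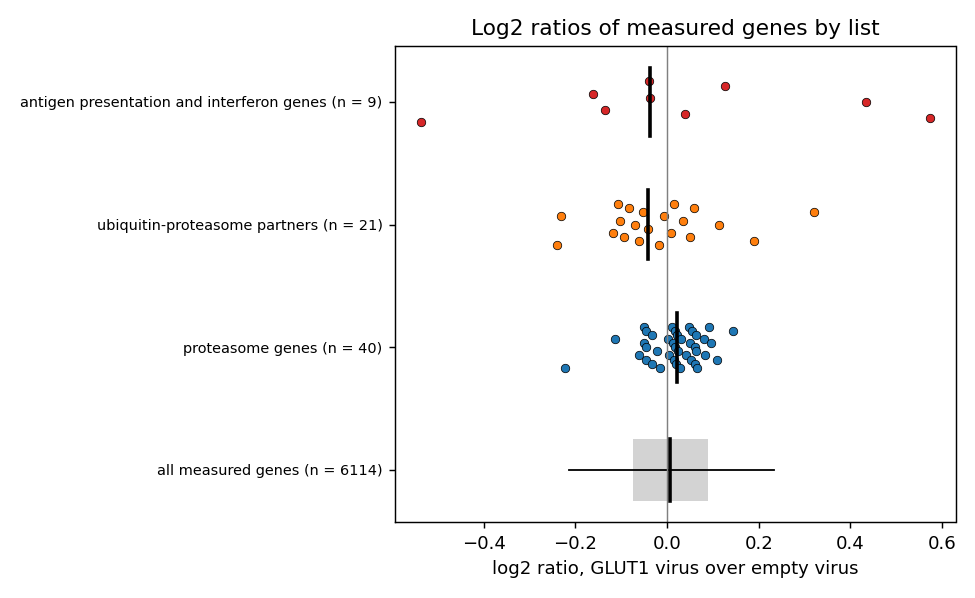
Log2 ratios of GLUT1 virus over empty virus for measured genes by list, with 1 point per gene and a black bar at the median (0.022 for the proteasome genes, -0.042 for the partners, -0.037 for the antigen presentation and interferon genes). For all 6114 measured genes the box spans the quartiles and the line the 5th to 95th percentiles, from -0.21 to 0.23, and 1 proteasome gene, Psma3 at -0.22, lies outside that line.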

How the data were processed

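Per the labels, 5 µg of total RNA per pool was made into biotinylated cRNA. The deposited table holds 1 linear intensity per probe set and array, in whole numbers. The summary, background and equalising steps, not given in the sources used here, left nearly equal distributions. Nearly equal distributions cannot show a change in total mRNA.

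The median ratio of probe sets at or above median brightness, -0.0014 log2 units, was subtracted from the GLUT1 virus array. Intensities under the 25th percentile, 175, were set to it before log2. The brightness filter was the median of all probe sets. The annotation named 1 gene for 12783 probe sets and several for 312. Symbols were updated through the gene ID, which the current table (GRCr8) held for 12748.

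With 1 array per group no test was made, and precision is limited by the number of arrays. The genes named were all members, and of each comparison list the 3 highest and 3 lowest measured genes. Others were picked with their values known, as the text says, and the cell type markers were named with theirs known too. Members and lists were chosen with earlier results of these data known. Alternatives changed scaling, floor, filter, probe set choice, symbols, thresholds and the mean for the median. Steps were tested on simulated data, with Python 3.11.15, numpy 2.4.6 and pandas 2.3.3.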

Additional observations from a re-analysis of the deposited data

Results flagged for a closer look

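The dimmest probe set of Psme4, which represents no gene in the comparisons was brighter in the GLUT1 virus pool, at 458 against 284 (log2 ratio 0.69). It is given here because it lies outside the comparisons and exceeded the empty virus reading by over 1.5-fold. Both readings lay under the brightness filter, and with no filter the difference was 2.73 local spreads. The brighter probe sets of Psme4 gave -0.047 and 0.092.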

How the results depend on the processing

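No paired analysis was possible because there is only 1 array on either side. The median over all proteasome genes stayed between 0.020 and 0.025 across the alternatives, and their mean was 0.016. Above 0 lay 27 to 29 genes where 40 were measured. With no filter it was 28 of 41, and with the filter at the 75th percentile 26 of 36. No alternative gave a gene past 2-fold, 1.5-fold included. With no filter Psmb8 entered and 1 gene passed 0.25 downwards, and at a threshold of 0.15 it was again 1, Psma3. With the symbols of Psma3 merged, 2 of 3 probe set pairs had the same sign. The mean of the antigen presentation and interferon genes was 0.029, where their median was -0.037. Immunoproteasome genes had no value under the filter at the 75th percentile, and without one their median was -0.033 in place of 0.038. The deposited values were already equalised, so scaling and quantile normalization say little about stability.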

Other observations

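The probe sets that list a proteasome gene together with other genes were assigned to no gene. The probe set that lists Psmb6 with Psmb6l1 was read at 5054 and 5641 (log2 ratio 0.16, 1.77 local spreads above the local median). Its values exceeded the log2 ratio of 0.14 and the 1.61 local spreads of Psmc3. Of 4 probe sets that list Psme3 with Aoc3 and G6pc1, 3 were measured, with log2 ratios of -0.071, -0.17 and 0.049.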
